A study of Mus musculus with 6 samples.

Results

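Ubiquitin-specific proteases are cysteine proteases of the USP fold. By their symbol, 46 of the 41921 rows of the deposited count table were taken as members. They are the protein-coding rows whose symbol is Usp followed by a number and at most 1 letter, leaving out Usp9y. Genes of the USP fold under other names, and Usp1 and Usp53, whose rows have no symbol, are outside the 46. Of the 46, 40 passed the filter on low counts and were tested. The other 6 had almost no reads: Usp13, Usp26, Usp29 and Usp43 were at 0 counts in every library, and a count of 0 leaves room for up to 3 counts, or 0.191 to 0.223 CPM (counts scaled to library size). Usp44 had 4, 2 and 1 counts in the RANKL libraries and 1, 0 and 0 in the albiflorin libraries, and Usp51 had 0, 0 and 0 against 1, 2 and 1.

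Ubiquitin is a small protein that is joined to other proteins, singly or in chains, and marks them for the proteasome, for the lysosome or for a signalling complex. Ubiquitin-specific proteases cut it off again, and so can spare a protein from breakdown, end a signal or recycle ubiquitin. In macrophages and osteoclasts such chains carry the signal from RANK, the receptor of the cytokine RANKL, through the adaptor TRAF6 to NF-kB, and on damaged mitochondria they recruit the machinery of mitophagy.

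RNA was sequenced from RAW264.7, a mouse monocyte/macrophage line of wild-type genotype that can be turned into osteoclasts, the cells that resorb bone. All 6 samples carry the label of osteoclast differentiation, and the protocol given for each of them has RANKL at 50 ng/mL put on cells 3 days past confluence. The groups were 3 libraries labelled RANKL intervention and 3 labelled ALBL or albiflorin, a monoterpene glycoside of peony. The dose and duration of albiflorin, and whether those cells also received RANKL, are not given in the labels beyond that shared protocol, and no untreated sample was analysed here. All libraries come from 1 cell line. Separate cultures for the replicates are not mentioned in the labels; p-values therefore reflect the spread among these 6 libraries alone, and that spread may be technical.

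Libraries held 13673284 to 15489482 counts. Of the 7 macrophage markers found in the table, the summed level was 3370 to 3570 CPM with RANKL and 3310 to 3490 CPM with albiflorin, with Spi1 called higher, Adgre1 called lower and Itgam at or near 0. The 9 osteoclast markers summed to 57.2 to 61.6 CPM with RANKL and 63.5 to 72.1 CPM with albiflorin. Of the 6 tested, only Acp5 was called (higher). With the trend of fold change on mRNA length or listed gene length removed, Acp5 was at 0.08 and not called (edgeR adjusted p = 0.624 and 0.618). Ctsk averaged 0.457 and 0.693 CPM, and Calcr was at 0 in all 6 libraries. Fibroblast and osteoblast markers summed to at most 4.78 CPM and lymphocyte markers to at most 2.77 CPM, with Dcn, Pdgfra, Cd3e, Cd8a and Ms4a1 at 0. Whether the differences in these markers had a part in the results on the members was not tested, and in bulk samples fewer cells of a type and less RNA per cell cannot be told apart.

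Most of the family was expressed, and 4 genes of different function led the order of levels in FPKM. Levels are the authors' FPKM, which are per listed length of gene, as mean ± SD with n = 3. Usp8, which removes ubiquitin from receptors on endosomes, had the highest mean with RANKL, 54.4 ± 1.57 FPKM. It was followed by Usp15 (51.1 ± 1.65 FPKM), the proteasome-bound Usp14 (46.8 ± 2.75 FPKM) and Usp7 (45.2 ± 0.346 FPKM), best known for acting on the p53 regulator Mdm2. The first 3 held 24.5% of the FPKM of all members. The order depended on the length used: per kb of mRNA from GENCODE M21, a scale added after the data were seen, Usp7 led with 86.8 ± 0.6 CPM per kb (n = 3), ahead of Usp8 (55.3 ± 1.61 CPM per kb), and Usp15 stood at 14.4 ± 0.474 CPM per kb. The median of the 40 tested members was 10.96 FPKM, 22 exceeded 10 FPKM, and 2 were under 1 FPKM, namely Usp27x (0.730 FPKM) and Usp50 (0.399 FPKM). Of the 39 neighbouring pairs in that order, 24 overlapped in their RANKL libraries. Usp8 lay above Usp15 in every pair of libraries, whereas Usp15 and Usp14, and Usp14 and Usp7, overlapped.

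**Figure D1:**
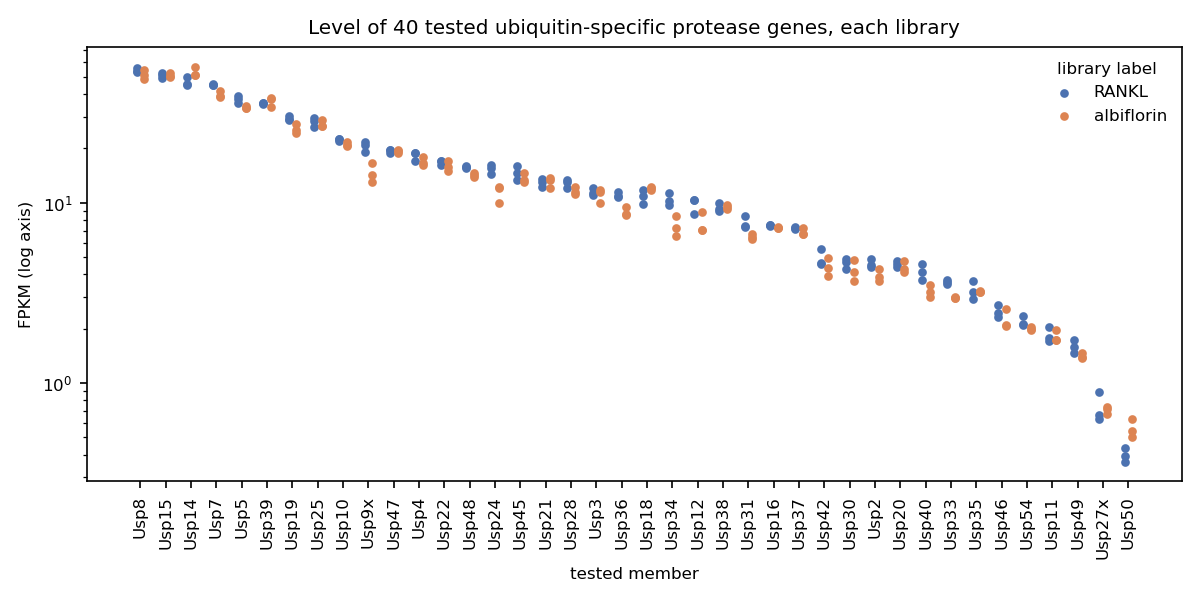
Level of each tested member in each library, in FPKM on a log axis, in the order of the mean level with RANKL. Points are single libraries (blue RANKL, orange albiflorin), and the means run from 54.4 FPKM for Usp8 down to 0.399 FPKM for Usp50.

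The comparison asked how the expression of these genes differed between libraries labelled albiflorin and those labelled RANKL. In edgeR's quasi-likelihood test, with Benjamini-Hochberg adjustment over all 13158 tested genes and a threshold of 0.05, 10 members were lower with albiflorin and 0 were higher. Over all tested genes 11.4% were lower and 12.4% higher, while the members called lower were 25% of the members tested. DESeq2 and limma-voom also called 0 members higher, where over all tested genes they called 1475 and 1601 higher. The log2 fold change, albiflorin over RANKL, was negative for 33 of the 40 members against 49.1% of all tested genes, and its median was -0.10 against 0.0056. All 40 values lay between -0.49 and 0.49.

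Together the members took 0.384%, 0.394% and 0.376% of the counts in the 3 RANKL libraries and 0.340%, 0.330% and 0.358% in the 3 albiflorin libraries. The groups did not overlap in this share; it is given with no test. In single genes, the 3 albiflorin libraries all lay below the 3 RANKL libraries for 15 of the tested members, where 19.3% of all tested genes did so, and above them for 2 members, where 20.8% of all tested genes did so. The members that were lower without overlap included 9 of the 10 called lower, the exception being Usp12.

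**Figure D2:**
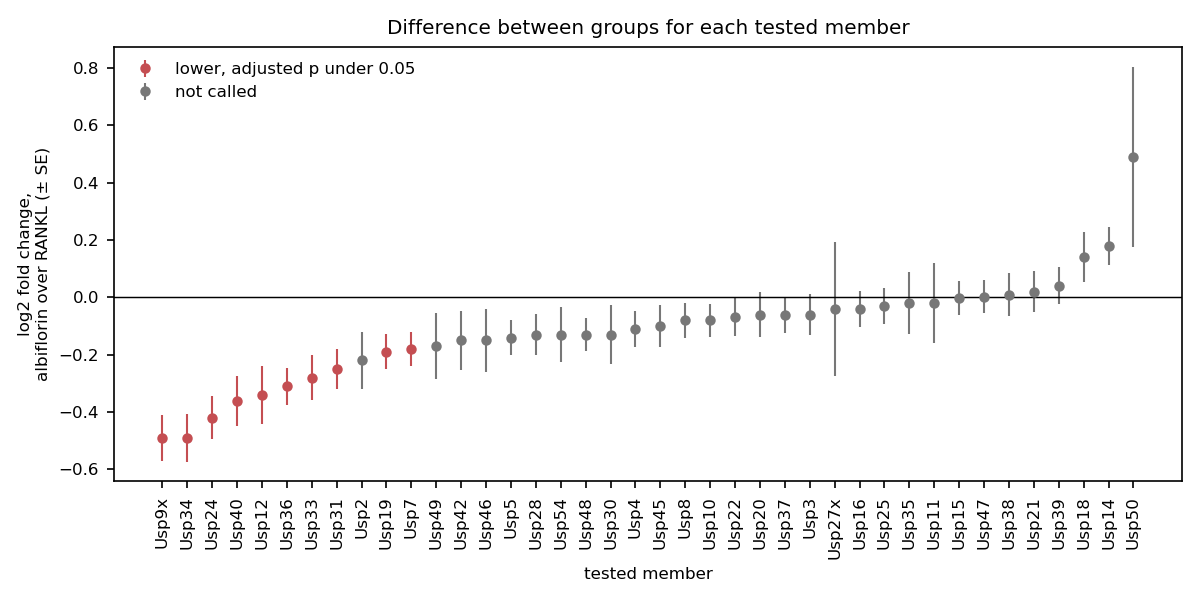
Log2 fold change, albiflorin over RANKL, of each tested member with its SE, in ascending order. The 10 members in red had an adjusted p under 0.05 and lie at -0.18 or below; no member was called higher, and Usp50 at 0.49 has the widest SE.

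The starts of 7 promoters are shown, those of 6 members called lower and that of Usp15, which was not called. They come from RefSeq (GRCm38.p6), whose table held a window of 300 bases around the start for 32 of the tested members and for 8 of the 10 called lower. The windows of Usp36 and Usp19, also called lower, were counted but are not printed. Each line gives the 100 bases before the start, 5′ to 3′, and capitals mark matches, on either strand, of the motifs named after the sequences.
Usp34, chr11:23306795-23306894, plus strand: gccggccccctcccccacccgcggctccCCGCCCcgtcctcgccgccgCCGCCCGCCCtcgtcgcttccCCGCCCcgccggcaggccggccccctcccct
Usp24, chr4:106316113-106316212, plus strand: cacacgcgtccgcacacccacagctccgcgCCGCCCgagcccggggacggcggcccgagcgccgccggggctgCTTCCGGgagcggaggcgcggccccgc
Usp31, chr7:121707443-121707542, minus strand: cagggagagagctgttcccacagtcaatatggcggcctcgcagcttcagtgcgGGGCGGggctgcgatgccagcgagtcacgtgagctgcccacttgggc
Usp12, chr5:146794957-146795056, minus strand: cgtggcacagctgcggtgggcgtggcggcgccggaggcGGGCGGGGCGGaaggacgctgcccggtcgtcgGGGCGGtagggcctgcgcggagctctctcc
Usp7, chr16:8738343-8738442, minus strand: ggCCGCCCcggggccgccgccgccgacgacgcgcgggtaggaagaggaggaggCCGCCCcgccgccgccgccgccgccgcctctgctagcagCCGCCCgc
Usp40, chr1:88008552-88008651, minus strand: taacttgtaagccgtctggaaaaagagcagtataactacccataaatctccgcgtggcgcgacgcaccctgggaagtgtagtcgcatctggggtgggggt
Usp15, chr10:123197020-123197119, minus strand: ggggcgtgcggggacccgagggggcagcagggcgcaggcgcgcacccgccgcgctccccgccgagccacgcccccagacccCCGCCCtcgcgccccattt

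The motifs were chosen with earlier results of these data known. GGGCGG, the core bound by Sp1 and KLF factors, occurred in the windows of 23 of the 32 members and of 7 of the 8 members called lower, against 62.1% of the promoters of tested genes and 35.7% of all promoters. CCGGAAG, an ETS core, was found in 8 of the 32 members (18.2% of the promoters of tested genes, 8.86% of all), among them Usp24, Usp19 and Usp36 of those called lower. CCAAT (NF-Y) occurred in 6 members, against 37.8% of the promoters of tested genes and 37.4% of all. TGANTCA (AP-1), the motif of the factors that RANKL activates with NF-kB, was in 4 members (4.93% and 7.81%), of which Usp31 was called lower. The motif of NRF1 (2.19% and 0.971%), TGACGTCA (CRE; 3.29% and 1.79%) and the motif of NF-kB (0.487% and 0.411%) were in none of the 32 windows. The windows of members had a median GC content of 65.7% and 29 CpG, against 60.7% and 20 for tested genes. The Usp40 window held none of these motifs, and that of Usp7 held 8 matches of GGGCGG. These are matches of letters in a window, not sites shown to be bound.

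The largest decreases were in the 3 very large proteases, all of which were lower with albiflorin. Over all tested genes 11.4% were lower, but among protein-coding genes with mRNAs above 10000 nt, as these 3 have, 57.7% were. Usp9x encodes a protease that acts on the transcription factor Smad4 and stabilises the survival protein Mcl1 (MGP_C57BL6NJ_G0036070, chromosome X, 8119131 to 8233283 in the coordinates of the deposited table). It had 251, 260 and 227 CPM in the RANKL libraries and 172, 156 and 198 CPM in the albiflorin libraries. Every albiflorin library was below every RANKL library, and the log2 fold change was -0.49 ± 0.0802 (SE; edgeR adjusted p = 0.000728), a change of -28.9%. Usp34, whose product acts on axin in Wnt signalling (chromosome 11, 21913364 to 22108498), had 189, 209 and 180 CPM with RANKL and 134, 122 and 156 CPM with albiflorin. Within each group the libraries stood in the order seen for Usp9x, with RANKL 2 highest, albiflorin 2 lowest and no overlap, and the difference was -0.49 ± 0.0829 (edgeR adjusted p = 0.000883). Usp24 (chromosome 4, 110808092 to 110935668) had 200, 192 and 180 CPM with RANKL and 150, 125 and 153 CPM with albiflorin. Its groups were also apart, by -0.42 ± 0.0751 on the log2 scale (edgeR adjusted p = 0.00131). All 3 were called lower whichever single library was left out. With the mRNA length trend removed, Usp9x and Usp34 were still called (both -0.19, edgeR adjusted p = 0.0378 and 0.047). Usp24 was then at -0.14 and not called (edgeR adjusted p = 0.125). In the deposited table Usp34 shares 2012 bases with Ahsa2 on the opposite strand (1510 counts over the 6 libraries against 14408), and the sources used here do not tell if strand was used in counting.

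**Figure D3:**
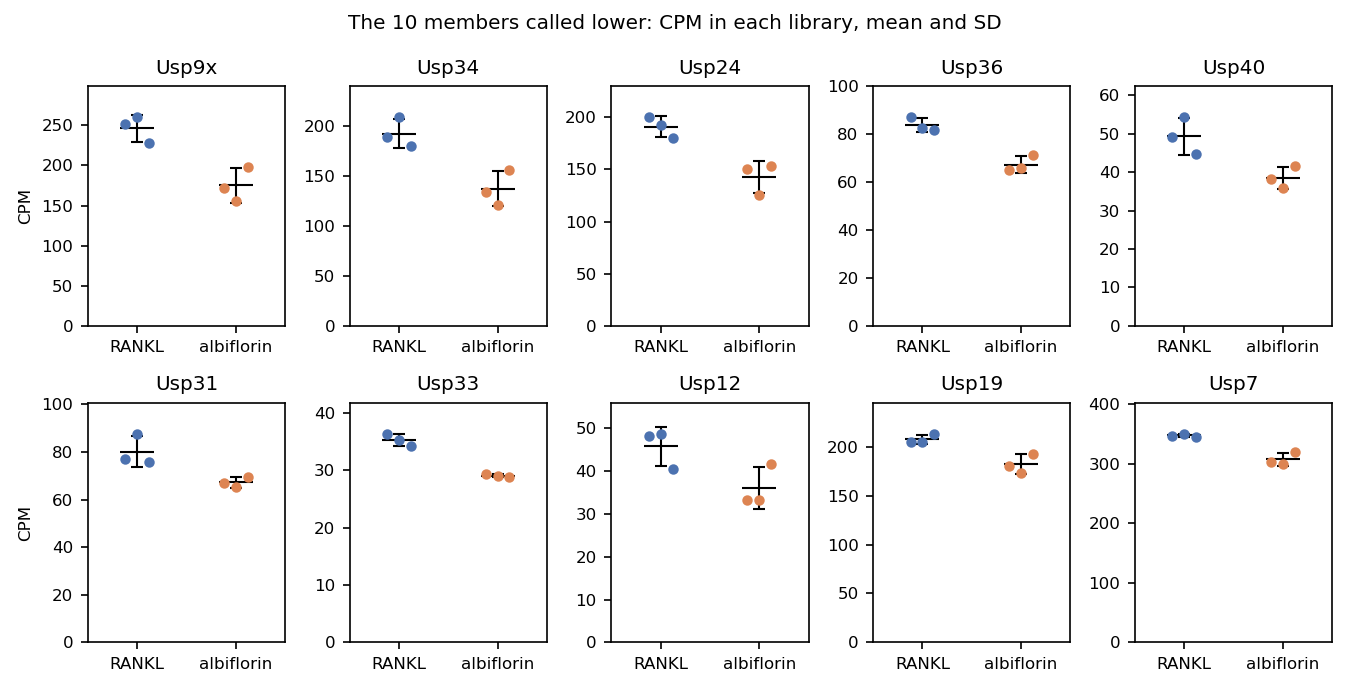
CPM of the 10 members called lower in each library, with the mean and SD of each group (n = 3), each axis starting at 0. The groups are apart in every panel except Usp12, where albiflorin 3 (41.7 CPM) lies above RANKL 3 (40.4 CPM).

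Among 7 proteases of membrane traffic and receptor turnover, 3 were lower (11.4% of all tested genes were) and 0 higher, and all 7 log2 fold changes were negative (median -0.15). With the mRNA length trend removed all 3 calls were lost and Usp20 was at 0.07. Usp12, which needs the partner protein Wdr48 for full activity (chromosome 5, 157907245 to 157969248), had 48.1, 48.6 and 40.4 CPM with RANKL and 33.2, 33.2 and 41.7 CPM with albiflorin. The third library of each group lay near the other group, and the difference was -0.34 ± 0.0999 (edgeR adjusted p = 0.0201). It was lost without RANKL replicate 1 or 2 or albiflorin replicate 1 or 2 (adjusted p 0.0661 to 0.0968). The 2 rows described as Usp12 pseudogenes held 0 counts.

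Usp33, which acts with its relative Usp20 on the recycling of adrenergic receptors (chromosome 3, 161346976 to 161399467), had 36.3, 35.3 and 34.3 CPM with RANKL and 29.3, 29.1 and 28.8 CPM with albiflorin. The libraries within a group were close to each other and the groups well apart. The difference was -0.28 ± 0.0792 (edgeR adjusted p = 0.0175), and the call was lost without RANKL replicate 1 (adjusted p = 0.062). Usp33 shares 3654 bases on the same strand with a row without symbol (259 counts over the 6 libraries against 2802), so its counts are uncertain. Usp19, of which a form is anchored in the endoplasmic reticulum (chromosome 9, 113465044 to 113476771), had 204, 205 and 213 CPM against 180, 173 and 193 CPM. The groups did not overlap, and the log2 fold change was -0.19 ± 0.0611 (edgeR adjusted p = 0.0346). This call held in 1 of the 6 fits that left out a library, that without albiflorin replicate 3.

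Usp8, first in FPKM, did not pass the test. It had 237, 224 and 227 CPM with RANKL and 216, 205 and 229 CPM with albiflorin, where albiflorin 3 lay within the RANKL range (log2 fold change -0.08 ± 0.0616, edgeR adjusted p = 0.356). The G3BP-binding Usp10 (-0.08), Usp20 (-0.06) and Usp46 (-0.15), which also uses Wdr48, were not called either. Usp20 shares 45826 bases on the same strand with Golga2, so its counts are uncertain.

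Histone and transcription proteases held 2 lower and 0 higher of 9 tested, with a median of -0.07. Over all tested genes 11.4% were lower and 12.4% higher. With the mRNA length trend removed neither call held (edgeR adjusted p = 0.0908 for Usp36 and 0.154 for Usp7). Usp36, a nucleolar protease of ribosome production (chromosome 11, 126324842 to 126357221), had 87.0, 82.5 and 81.7 CPM with RANKL and 64.9, 65.7 and 71.4 CPM with albiflorin. All albiflorin libraries were below all RANKL libraries, and the difference of -0.31 ± 0.0655 (edgeR adjusted p = 0.00313) was called whichever library was left out. Usp7 (chromosome 16, 5507622 to 5625713) had 347, 350 and 345 CPM with RANKL and 303, 299 and 320 CPM with albiflorin, the highest counts of any member. Its RANKL libraries differed by little and all exceeded the albiflorin libraries, with a log2 fold change of -0.18 ± 0.0581 (edgeR adjusted p = 0.0364). Like that of Usp19, the call held only without albiflorin replicate 3 when single libraries were left out (highest adjusted p 0.116). The members that act on ubiquitin of histone H2A were not called: Usp3 (-0.06), Usp16 (-0.04) and Usp21 (0.02). Usp22, the protease of the SAGA coactivator, was at -0.07 (edgeR adjusted p = 0.477), its relative Usp27x at -0.04, Usp42 at -0.15 and Usp49, an H2B protease, at -0.17.

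Of the 5 members known from inflammatory and interferon signalling, 1 was lower (11.4% of all tested genes were). Usp31, an inhibitor of NF-kB signalling (chromosome 7, 130647748 to 130715690), had 77.1, 87.7 and 75.6 CPM with RANKL and 67.1, 65.2 and 69.7 CPM with albiflorin. The groups were apart, with RANKL 2 the highest library, and the log2 fold change was -0.25 ± 0.0707 (edgeR adjusted p = 0.017). The call was lost without RANKL replicate 2 or albiflorin replicate 1 (highest adjusted p 0.0866). Usp18 removes the ubiquitin-like protein ISG15 and blocks the interferon receptor (chromosome 6, 127363332 to 127388255). It had 33.2, 27.7 and 30.4 CPM with RANKL and 32.8, 33.7 and 34.2 CPM with albiflorin; the groups overlapped through RANKL 1 (log2 fold change 0.14 ± 0.087, edgeR adjusted p = 0.253). Usp25 (-0.03), which tempers signalling through TRAF adaptors, Usp38 (0.01) and Usp2 (-0.22, edgeR adjusted p = 0.112) were not called, although Usp2 was lower without overlap: 23.5, 21.8 and 21.2 CPM against 17.7, 18.7 and 20.5 CPM.

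Usp40, a large protease of which little is known (chromosome 1, 92646064 to 92714313), was also lower. It had 49.2, 54.3 and 44.7 CPM with RANKL and 38.2, 35.8 and 41.6 CPM with albiflorin, without overlap (log2 fold change -0.36 ± 0.0868, edgeR adjusted p = 0.00771). The call was lost without RANKL replicate 2 (adjusted p = 0.0515). Of the other tested members of that class, Usp54 (-0.13) and Usp50 (0.49 ± 0.314, edgeR adjusted p = 0.281) were not called. Usp50 lies across Usp8 on the opposite strand over 56239 bases and had 116 counts in all against 19383 for Usp8, so its counts are uncertain.

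No member tied to the proteasome, the spliceosome, DNA repair or mitochondria passed the test. Usp14, which trims ubiquitin at the proteasome (chromosome 18, 7338394 to 7377626), had 210.4, 231.9 and 209.8 CPM with RANKL and 238.7, 264.8 and 236.1 CPM with albiflorin. All albiflorin libraries were above all RANKL libraries, and the difference was 0.18 ± 0.0661 (edgeR adjusted p = 0.0576), just past the threshold. It was called higher without RANKL replicate 2 (adjusted p = 0.0395) and without albiflorin replicate 3 (adjusted p = 0.0413), where 7.57% and 13.1% of all tested genes were called higher. Usp5, which takes apart free ubiquitin chains, lay at -0.14 (edgeR adjusted p = 0.111).

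Usp15, an enzyme of spliceosome and Smad regulation (chromosome 10, 130730358 to 130817223), had 171, 160 and 167 CPM with RANKL and 161, 172 and 164 CPM with albiflorin. The groups overlapped fully, at -0.00087 ± 0.0592 (edgeR adjusted p = 0.995), so that the range of 1 SE ran from a change of -4.08% to 4.13%. Its relative Usp4 (-0.11) and the inactive tri-snRNP subunit Usp39 (0.04) were not called. Nor were 6 members of DNA repair and the cell cycle, with log2 fold changes from -0.13 to 0.0026: Usp48, Usp28, Usp45, Usp37, Usp11 and Usp47. Usp37 overlaps Cnot9 on the opposite strand over 25880 bases.

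The series title names osteoclast mitophagy, and Usp30 is a protease of the mitochondrial outer membrane that restrains mitophagy (chromosome 5, 121293823 to 121356158). It had 28.7, 29.6 and 26.0 CPM with RANKL and 25.3, 22.6 and 29.2 CPM with albiflorin. Albiflorin 3 lay among the RANKL libraries, and the difference of -0.13 ± 0.102 was not called (edgeR adjusted p = 0.395), with a range of 1 SE from -14.7% to -1.8%. Usp35, also described at mitochondria, was at -0.02. Usp30 shares 795 bases with Alkbh2 on the opposite strand.

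In these libraries the fold change of a gene followed its length, and the members are long. Among 10568 tested protein-coding genes with an mRNA length from GENCODE M21, matched by symbol, Spearman's rho between log2 fold change and mRNA length was -0.62. Among the 40 members it was -0.43, and with the gene length listed in the deposited table -0.66. These describe genes that share the same 6 libraries. The median mRNA was 4655.5 nt for tested members, 2986 nt for the protein-coding genes, 5352 nt for the members called lower and 4495.5 nt for the other tested members.

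Set beside genes of like length, the members' share of lower calls was near that of the class or rested on few genes. With mRNAs of 4000 to 6000 nt, 6 of 22 members (27.3%) were lower against 22.5% of the protein-coding genes of that class. Above 10000 nt it was 4 of 5 members (Usp9x, Usp34, Usp24 and Usp31; Usp15 was the exception) against 57.7%. From 6000 to 10000 nt none of 3 members was lower, against 48.4%. Below 4000 nt none of 10 members was lower, where 4.97% of genes of 2000 to 4000 nt and 0.739% of shorter ones were.

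**Figure D4:**
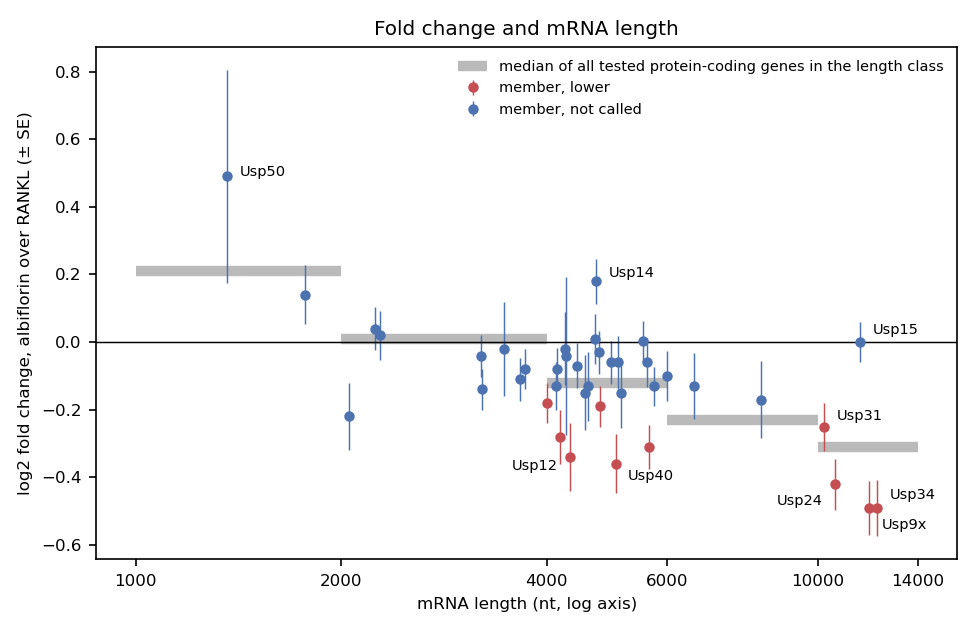
Log2 fold change, albiflorin over RANKL, with its SE against mRNA length on a log axis for each tested member. Grey bars give the median of all tested protein-coding genes in each length class, from 0.21 under 2000 nt to -0.31 over 10000 nt (the outer classes are drawn to the ends of the bars only); Usp15 lies at the right near 0, Usp9x and Usp34 at -0.49.

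With each library's trend on mRNA length removed, 3 members were lower and 2 higher, where 5.4% of all tested genes were called lower and 4.98% higher. The median of the members was then -0.01 against -0.0169 for all tested genes, and 22 of the 40 had a negative value against 54% of all. Of the 10 members called lower, 2 were still called: Usp9x (-0.19, edgeR adjusted p = 0.0378) and Usp34 (-0.19, adjusted p = 0.047). The third was Usp2 (-0.33, adjusted p = 0.0399). Usp14 (0.30, adjusted p = 0.00734) and Usp15 (0.30, adjusted p = 0.0128) were called higher. The 8 other members of the original 10 lay between -0.26 for Usp12 and 0.03 for Usp31.

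The value of Usp15 depended on the length used. Its mRNA has 11525 nt, whereas the deposited table lists 3227, and with the trend on the listed length removed it was -0.05 (edgeR adjusted p = 0.609). In that version 5 members were lower (7.96% of all tested genes) and 1 was higher (7.18%). The 5 were Usp9x (-0.29), Usp24 (-0.22), Usp34 (-0.23), Usp36 (-0.19) and Usp12 (-0.32), all among the original 10, and the higher one was Usp14 (0.21, adjusted p = 0.029). Usp9x and Usp34 were the only members called lower in all 17 alternative settings, and Usp14 was called higher in both versions with the trend removed.

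**Figure D5:**
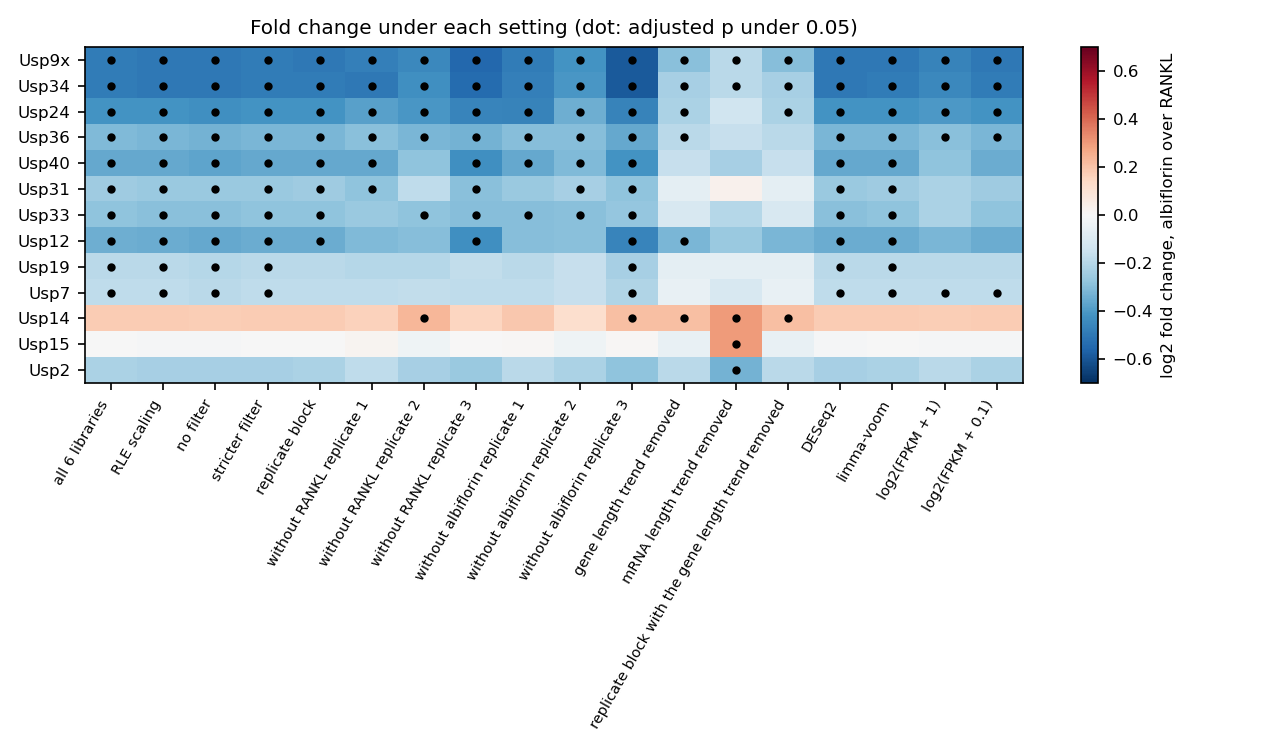
Log2 fold change, albiflorin over RANKL, of the 10 members called lower and of Usp14, Usp15 and Usp2 (rows) with all 6 libraries and under each of 17 alternative settings (columns), as colour; a dot marks an adjusted p under 0.05. Usp9x and Usp34 have a dot in every column, while Usp7 and Usp19 each have 1 among the 6 columns that leave out a library.

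Values in the listed genes of other deubiquitinase families were more often positive than in the members, a difference that was not tested. These genes were listed by family, not by shown activity on ubiquitin. Of 44 genes found for the UCH, OTU, JAMM, Josephin, MINDY and ZUP1 families and for enzymes of the USP fold under other names, 39 were tested. Of these 4 were higher and 2 lower, where 12.4% and 11.4% of all tested genes were. The 39 had 12 negative values and a median of 0.08. Those with a matched mRNA length had a median mRNA of 2811.5 nt. The higher ones were Uchl3 (0.40, edgeR adjusted p = 0.0169), the proteasome lid subunit Psmd14 (0.24, adjusted p = 0.018), Stambpl1 (0.19, adjusted p = 0.0474) and the translation factor subunit Eif3h (0.24, adjusted p = 0.0344). Lower were the spliceosome protein Prpf8 (-0.39, adjusted p = 0.00108) and Mindy2 (-0.22, adjusted p = 0.0441). With the mRNA length trend removed the count was again 4 higher and 2 lower, where 4.98% and 5.4% of all tested genes were. Only Prpf8 was called in both fits. Uchl3, Psmd14, Stambpl1 and Eif3h then lay between 0.0014 and 0.08, while Yod1 (0.44), Zranb1 (0.27), Vcpip1 (0.23) and Mindy1 (0.20) were called higher and Otud3 (-0.50) lower. The MINDY and ZUP1 genes had no matched mRNA length, and their listed gene length was used in that fit. None of the 3 tested enzymes of the USP fold was called, among them Cyld, which cuts the chains downstream of TRAF6 (-0.06, adjusted p = 0.55). Tnfaip3, the OTU protease A20 of the same pathway, was at 0.09 (adjusted p = 0.569).

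Partners and pathways of the members were read from lists of genes. Of 12 tested partner proteins, 3 were lower and 1 higher, where 11.4% and 12.4% of all tested genes were. With the mRNA length trend removed 1 was lower (G3bp2) and 3 were higher (Eny2, Gmps and G3bp1). Wdr48, the activator of Usp12 and Usp46, had 93.4, 92.4 and 84.5 CPM with RANKL and 78.9, 76.2 and 81.1 CPM with albiflorin. Its groups did not overlap (-0.19 ± 0.0645, edgeR adjusted p = 0.0378), and the call was lost without RANKL replicate 1 or 2 or albiflorin replicate 1 or 2. Of the genes that hold Usp22 in the SAGA module, Eny2 was higher (0.39, adjusted p = 0.00355), also with that trend removed. Atxn7 was lower (-0.42, adjusted p = 0.0419), and without the trend it was at -0.22 and not called (adjusted p = 0.301). Atxn7l3 (-0.12, edgeR adjusted p = 0.233) and Atxn7l3b (-0.03, edgeR adjusted p = 0.795) were not called. G3bp2, a relative of the Usp10 partner G3bp1, was lower (-0.21, adjusted p = 0.0169).

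Of 7 genes of the ISG15 pathway, on which Usp18 acts, 1 was higher and 1 lower. Over all tested genes 12.4% were higher and 11.4% lower. Isg15 itself had 1.835, 1.975 and 1.417 CPM with RANKL and 3.693, 3.493 and 3.304 CPM with albiflorin. All albiflorin libraries were higher, by 1.00 ± 0.249 on the log2 scale (edgeR adjusted p = 0.00887), but the call was lost with the trend on mRNA length removed (0.62, adjusted p = 0.135). Its mRNA has 756 nt. Stat2, the interferon signal transducer that Usp18 binds, was lower (-0.37, adjusted p = 0.00211), also with that trend removed (-0.28, adjusted p = 0.0172).

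Of 7 mitochondrial genes from the list around Usp30, 1 was higher and 1 lower (12.4% and 11.4% of all tested genes). Tomm20, an import receptor of the outer membrane, was higher (0.24, edgeR adjusted p = 0.0468), although its groups overlapped. The mitofusin gene Mfn2 was lower (-0.33, adjusted p = 0.00266). The mitophagy kinase gene Pink1 was at 0.05 (adjusted p = 0.732). Of 4 tested genes of ubiquitin and its activating enzymes, 1 was higher and 1 lower, against those same shares of all tested genes. Rps27a, a ribosomal fusion gene whose reads could be split with pseudogene copies and which is therefore uncertain, was higher (0.83, edgeR adjusted p = 2.33e-05). The activating enzyme Uba6 was lower (-0.34, adjusted p = 0.00266). With the mRNA length trend removed Uba6 was at -0.15 and not called (edgeR adjusted p = 0.132). Tomm20 (0.37, adjusted p = 0.00883), Mfn2 (-0.24, adjusted p = 0.0134) and Rps27a (0.47, adjusted p = 0.00437) were still called in that fit.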

How the data were processed

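The deposited counts are whole reads per gene in each library, and the authors' FPKM table holds the same genes. The submitters' processing notes name HISAT2 2.2.1 and featureCounts 2.0.6-p3 besides CASAVA 1.8, DESeq2 1.42.0 and fastp, without their roles; build and use of strand are not given in the sources. Identifiers follow the C57BL/6NJ annotation, but RAW264.7 derives from a BALB/c mouse, and strain variants may lower a gene's counts. Of 41921 rows, 11512 had no symbol, 386 of which were named from their description for the lists of other genes, and 825 rows of added genes took 1.95% to 2.15% of the counts.

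Samples were grouped by title. Counts were tested with edgeR 4.0.16 in R 4.3.3 (filterByExpr, TMM, quasi-likelihood F-test on group alone, Benjamini-Hochberg over all tested genes, threshold 0.05). CPM use the TMM-scaled library sizes of the tested genes, and an SE is the size of the log2 fold change over the square root of F. Floors for a count of 0 cover counting error only, while an SE includes the spread between libraries. No 2 libraries of a group agreed within sampling noise (chi-square per degree of freedom 3.8 to 9.3).

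The alternatives were RLE scaling, no filter, a filter of 1 CPM in all 6 libraries, a block for the replicate number, each library left out in turn, DESeq2 1.42.0, limma-voom (limma 3.58.1), and limma on log2(FPKM + 1) and log2(FPKM + 0.1). Others removed each library's lowess trend (span 0.3, fitted over genes with a mean log2 CPM above 3, prior count 2) on the listed gene length, alone and with the block, or on the mRNA length of the GENCODE M21 principal transcript. Genes without a matched mRNA length, Mindy1 and Mindy2 among them, entered the mRNA length fit with their listed gene length. The fit was checked on simulated data; the pass mark of that check was set on well-covered genes after low-count genes had fallen short of it.

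Given with values in every library were the members called, the 3 with the highest mean FPKM, and Usp7, Usp8, Usp9x, Usp14, Usp15, Usp18 and Usp30. From each list of other genes the text names the called ones, at most 3 by smallest p, and Cyld, Tnfaip3, Wdr48 and Isg15 whatever their result, and some genes of these lists are not reported here; any other gene was named after its values were seen. The members and lists were chosen with earlier results of these data known. Protein sequences were not used here.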

Additional observations from a re-analysis of the deposited data

How the results depend on the processing

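The 10 members called lower were also 10 with RLE scaling, no filter, the stricter filter, DESeq2 and limma-voom. Leaving out 1 library gave 5 to 10: 5 without RANKL replicate 2, 6 without RANKL replicate 1 and 6 without albiflorin replicate 1. The count was 5 with the gene length trend removed, 3 with the mRNA length trend removed, 5 on log2(FPKM + 1) and 5 on log2(FPKM + 0.1). Members called higher numbered 0 to 1 without 1 library (1 without RANKL replicate 2 and 1 without albiflorin replicate 3), 1 and 2 after removal of the gene length and the mRNA length trend. Over all genes, higher calls ran from 984 to 1753 and lower calls from 914 to 1644 without 1 library. The mRNA length trend removed gave 655 higher and 711 lower, the gene length trend removed 945 higher, log2(FPKM + 1) 901 lower and log2(FPKM + 0.1) 909 lower. The cause of these shifts was not tested. Of the 10 members, 4 (Usp9x, Usp24, Usp34, Usp36) were called whichever library was left out.

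Same-numbered libraries did not deviate together (correlations 0.022, -0.043 and -0.066). The labels give them only the number in common, and such correlations cannot show that they shared no culture or batch. With the replicate number as a block, 8 members were lower, 0 higher, 1358 genes higher and 1214 lower. The replicate block with the gene length trend removed gave 3 members lower, 1 higher, 813 genes higher and 887 lower.

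The sign of the log2 fold change turned 70 times; the gene was called in both fits in 0 of them and in neither in 65. With the gene length trend removed the values were Cyld 0.07, Eif3h -0.03, Usp11 0.01, Usp16 0.12, Usp20 0.10, Usp3 0.05, Usp35 0.03, Usp37 0.13, Usp39 -0.07, Usp4 0.04, Usp48 0.03 and Usp54 0.03. With the replicate block as well, they were Cyld 0.07, Eif3h -0.02, Usp11 0.01, Usp16 0.12, Usp20 0.10, Usp3 0.05, Usp35 0.04, Usp37 0.13, Usp39 -0.07, Usp4 0.04, Usp48 0.03 and Usp54 0.03. With the mRNA length trend removed they were Cyld 0.16, Mindy2 0.01, Usp11 0.02, Usp15 0.30, Usp18 -0.0038, Usp20 0.07, Usp21 -0.06, Usp22 0.02, Usp25 0.08, Usp27x 0.05, Usp3 0.10, Usp31 0.03, Usp35 0.06, Usp37 0.07, Usp39 -0.04, Usp45 0.07, Usp48 0.03, Usp49 0.06 and Usp54 0.07. Usp47 was -0.0033 with RLE scaling and with DESeq2, -0.00035 with the stricter filter, -0.01 with no filter and -0.0014 on log2(FPKM + 1) and log2(FPKM + 0.1); Usp38 was -0.002 with no filter. Without 1 library, ranges were -0.08 to 0.06 for Usp11, -0.03 to 0.02 for Usp15, -0.02 to 0.07 for Usp21, -0.08 to 0.00089 for Usp25, -0.14 to 0.14 for Usp27x, -0.11 to 0.0021 for Usp3, -0.10 to 0.08 for Usp35, -0.02 to 0.05 for Usp38 and -0.02 to 0.02 for Usp47.

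With 3 libraries a group and 13673284 to 15489482 counts each, the smallest change of a member that was called was -11.5% (Usp7), and the 6 untested members had too few reads for a comparison.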

Other observations

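Usp1 and Usp53 stand in the table without a symbol and were named from their description, so they are not among the 46 genes. Usp1, which works with Wdr48 in DNA repair, had 158, 168 and 155 CPM with RANKL and 155, 168 and 156 CPM with albiflorin; the groups overlapped (log2 fold change -0.01 ± 0.0617, edgeR adjusted p = 0.958). Usp53 had 22.9, 25.93 and 19.97 CPM with RANKL and 19.9, 20.1 and 22.4 CPM with albiflorin (-0.14 ± 0.108, edgeR adjusted p = 0.363).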
